A study of Mus musculus with 4 samples.

Results

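The genes described here are 10 vascular genes: the growth factors Vegfa and Vegfc, their receptors Kdr, Flt1 and Flt4, the receptor Tek with its ligands Angpt1 and Angpt2, and the endothelial junction genes Pecam1 and Esam. They were chosen by name, and are 10 of the 18193 genes that the array reads with a probe set of their own. Every probe set, a group of probes on the array that together read 1 transcript, was taken whose platform annotation gave 1 of these symbols and no other gene, which gave 19 of the 45037 probe sets that were not controls. Messenger RNA was measured with single-colour Affymetrix mouse arrays in whole dorsal skin at postnatal day 16, in 2 wild type mice and in 2 bitransgenic mice that overexpressed deltaNp63alpha, a p63 isoform of basal keratinocytes without the amino-terminal transactivation domain. Each array held RNA of 1 animal. The labels give neither the promoter that drives the transgene, nor any inducing treatment, strain, litter or sex, and the tissue is a mixture of epidermis, hair follicle, dermis, fat and muscle in which endothelial cells are a minority.

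Vegfa, secreted by keratinocytes and many other cells, binds Kdr, the main signalling receptor of blood vessel endothelium, and Flt1, which binds it tightly and also exists in a soluble form that sequesters it. Vegfc acts mainly through Flt4 on lymphatic endothelium. Angpt1 activates Tek and steadies vessels, while Angpt2, stored in endothelial cells, can oppose it. In skin, the blood vessels around hair follicles widen while hair grows and shrink back when growth ends.

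Of the 19 probe sets, 17 passed a filter on dim signals, and all 10 genes had at least 1 probe set among them. None of the 17 differed between bitransgenic and wild type skin in limma's test after Benjamini-Hochberg adjustment (0 higher and 0 lower, adjusted p from 0.352 to 0.993). Over all 27022 probe sets tested, 0.207% were called higher and 0.555% lower. At an unadjusted p under 0.05 there was 1 higher probe set, of Flt1, and 1 lower, of Tek, against 5.19% higher and 7.01% lower over all probe sets. The Flt1 probe set passed the filter only through its bitransgenic arrays, its wild type mean being under the filter, so its p is no support for a difference. The groups of arrays did not overlap for 4 member probe sets with higher and 1 with lower bitransgenic signals, against 21.4% and 21.7% of all probe sets. The median difference of the members, bitransgenic minus wild type on the log2(signal + 16) scale, was 0.16, against 0.0080 over all probe sets. Leaving out wild type replicate 1 gave 0.46, leaving out replicate 2 of that group gave -0.10 and leaving out bitransgenic replicate 1 gave 0.086, so its sign rested on 1 array. With 2 arrays a group, the 95% interval of each difference spanned between 0.782 and 1.56 to either side on the log2 scale. It reached a 2-fold higher level for 11 of the 17 probe sets and a 2-fold lower level for 7, so changes of that size in these genes cannot be told from none. An exact permutation test of 1 value with 2 arrays against 2 cannot go below p = 0.333 (two-sided), and none was used.

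Tek and Flt1 are the members for which a probe set had an unadjusted p under 0.05, with the limit given above for Flt1, and the RefSeq promoter table (GRCm38.p6) held 6 of the 10 genes, these included. The 250 bases before their start sites are shown to place the genes, with capitals for the core of the hypoxia response element (ACGTG or GCGTG) and for the core bound by ETS factors (GGAA), a family that acts on many endothelial genes, each on either strand. The first is at chr4:94739039-94739288, plus strand, and the second at chr5:147726012-147726261, minus strand, and both are written 5′ to 3′ along the gene.
Tek: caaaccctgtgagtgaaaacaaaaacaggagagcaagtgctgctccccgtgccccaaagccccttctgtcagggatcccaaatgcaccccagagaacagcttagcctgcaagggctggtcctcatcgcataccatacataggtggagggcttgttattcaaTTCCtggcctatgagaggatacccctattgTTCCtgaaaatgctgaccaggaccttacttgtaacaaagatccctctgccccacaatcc
Flt1: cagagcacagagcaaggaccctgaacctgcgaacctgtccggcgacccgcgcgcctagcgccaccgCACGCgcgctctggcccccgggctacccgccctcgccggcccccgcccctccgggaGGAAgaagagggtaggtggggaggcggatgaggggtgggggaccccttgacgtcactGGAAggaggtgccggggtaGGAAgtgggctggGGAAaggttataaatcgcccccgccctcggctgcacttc
The Flt1 window held 4 ETS cores and 1 hypoxia core, and the Tek window held 2 ETS cores and 0 hypoxia cores. Among 32851 promoter windows of this length, 93.4% held an ETS core and 38.6% a hypoxia core. The windows were not tested for binding in these data.

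All arrays shared 1 trimmed mean as deposited, and their median signals lay between 97.9 and 113.1. As a check of the labels, 2 of 4 Trp63 probe sets read 161.3 to 837.8 in wild type against 4644 to 15247 in bitransgenic skin, while the other two overlapped between groups. The summed signal of 6 epidermal keratinocyte markers ran from 96206 to 99175 in wild type and from 91092 to 129013 in bitransgenic skin. The single markers went both ways, with 3 positive and 3 negative differences (0 called). Krt1 (1.58) and Ivl (1.35) were higher and Lor (-1.15) lower without overlap of the groups. All 6 dermal fibroblast markers, the collagen genes Col1a1, Col1a2 and Col3a1 with Dcn, Lum and Pdgfra, were lower on both bitransgenic arrays than on both wild type arrays, with a median difference of -0.92 (0 called, 4 at an unadjusted p under 0.05). Their signals summed to 130752 and 114607 in wild type against 59197 and 77343 in bitransgenic skin, and none was at 0 on any array. Over all genes, 23.9% were higher and 24.9% lower without overlap, and 8.99% were lower at an unadjusted p under 0.05. The endothelial cadherin Cdh5 read 400.9 and 503.4 on the wild type arrays, replicate 1 first, against 335.2 and 583.3 on the bitransgenic arrays.

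Vegfa was read by a pair of probe sets, called A and B here in the order of their identifiers, as for every gene below. Signals of A were 741.3 and 383.8 in wild type skin against 728.8 and 845.8 in bitransgenic skin, replicate 1 first here and throughout. The groups overlapped, because wild type replicate 1 lay above bitransgenic replicate 1. The mean was 562.6 ± 253 (SD, n = 2) in wild type and 787.3 ± 82.7 in bitransgenic skin, and the difference on the log2(signal + 16) scale, used for every difference and fold below, was 0.54 ± 0.38 (standard error, SE), or 1.46-fold (95% interval 0.771 to 2.75, adjusted p = 0.662 by limma). B gave 79.6 and 115.9 in wild type against 119.3 and 291.5 in bitransgenic skin. Both bitransgenic arrays lay above both wild type arrays for B, with a difference of 0.86 ± 0.50 (adjusted p = 0.585), but bitransgenic replicate 1 exceeded wild type replicate 2 only slightly. Whole skin cannot tell fewer cells of a type from less RNA per cell, for this gene and all those that follow.

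Vegfc, the lymphatic growth factor, was read by 3 probe sets. C gave signals of 722.5 and 263.9 in wild type against 280.4 and 279.8 in bitransgenic skin. A gave 310.9 and 117.8 against 169.6 and 152.3, and B, of suffix _x_at and so open to signal from related sequences, gave 264.1 and 135.7 against 160.1 and 151.7. In all 3 probe sets wild type replicate 1 was the highest array and wild type replicate 2 the lowest, with both bitransgenic arrays between them. The differences were -0.24 ± 0.50 for A, -0.26 ± 0.43 for B and -0.62 ± 0.50 for C (adjusted p from 0.713 to 0.909). Their sign rested on 1 array: without wild type replicate 1 they were 0.40, 0.18 and 0.081.

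**Figure D1:**
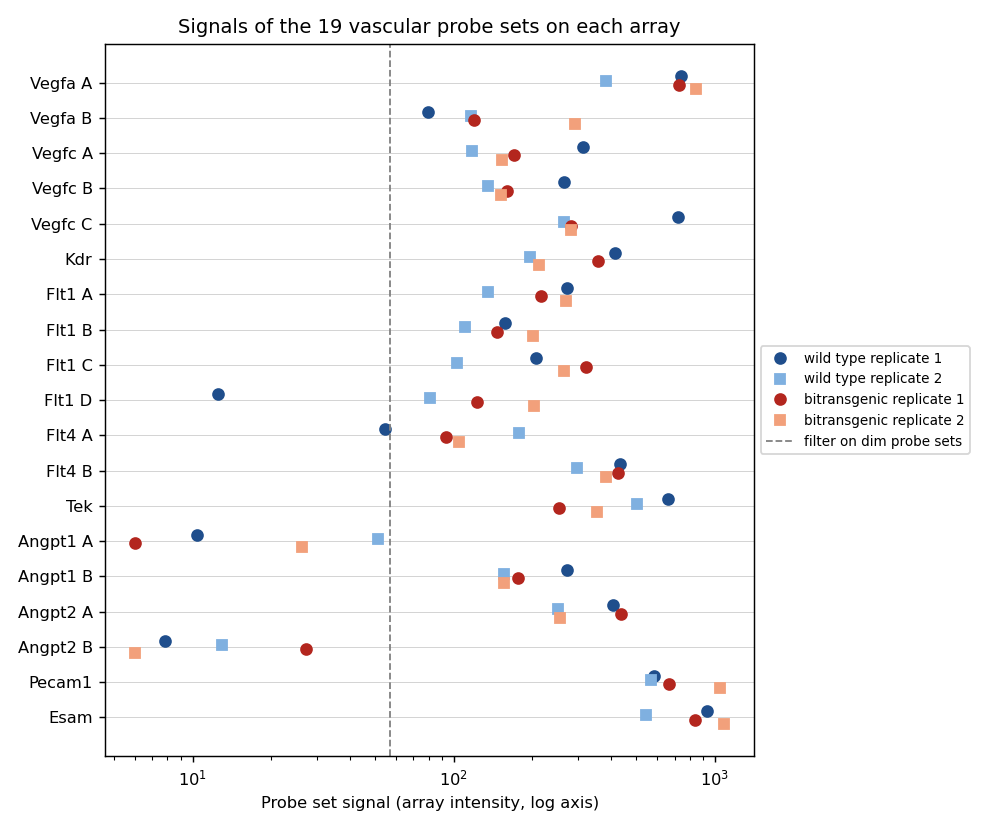
Signal of each of the 19 probe sets (rows; letters tell apart probe sets of a gene) on each of the 4 arrays, on a log axis in units of array intensity; blue points are wild type, red and orange points bitransgenic, and the dashed line is the filter's signal of 57.0. Angpt1 A and Angpt2 B lie left of the line on all arrays, and only Vegfa B, Flt1 C, Flt1 D, Tek and Pecam1 show the groups apart among the rest.

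Kdr, the receptor that carries most of the Vegfa signal, had 1 probe set, with signals of 412.6 and 195.6 in wild type against 356.3 and 212.4 in bitransgenic skin. Replicate 1 was the higher array in each group, and both bitransgenic arrays lay between the wild type arrays. The difference was -0.046 ± 0.47, with a 95% interval from 0.439-fold to 2.14-fold (adjusted p = 0.985). The sign changed with quantile normalization (0.048) and with equal array medians (0.032).

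Flt1, the receptor that also has a soluble form, was read by 4 probe sets, and they differed. A gave signals of 271.9 and 135.4 in wild type against 216.2 and 269.8 in bitransgenic skin, and B gave 157.4 and 110.2 against 146 and 200.1. For both of these the groups overlapped, with differences of 0.30 ± 0.43 and 0.34 ± 0.39 (adjusted p = 0.856 and 0.813). C gave 206 and 102.8 in wild type against 319.3 and 264.4 in bitransgenic skin, and D gave 12.5 and 80.9 against 122.4 and 203. For C and D both bitransgenic arrays lay above both wild type arrays.

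The difference for Flt1 C was 0.92 ± 0.43, or 1.89-fold (95% interval 0.922 to 3.87, adjusted p = 0.475), and for D it was 1.73 ± 0.65 (unadjusted p = 0.0345, adjusted p = 0.352). The wild type mean of D, 46.7 ± 48.4, was under the filter's 57.0, and D thus passed the filter only through its bitransgenic arrays (162.7 ± 57.0). No fold is given for D, because a pseudocount of 1 gave a difference of 2.25 and one of 64 gave 1.08. Its size also depended on 1 array, being 0.85 without wild type replicate 1 (adjusted p = 0.613) and 2.61 without wild type replicate 2, where it passed the threshold (adjusted p = 0.0399). Which stretch or transcript form of Flt1 each probe set reads is not given in the sources used here.

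Flt4, the receptor for Vegfc on lymphatic endothelium, had 2 probe sets. B gave 433.8 and 295.8 in wild type against 426.1 and 381.5 in bitransgenic skin, both bitransgenic arrays lying between the wild type arrays. A gave 54.4 and 177.8 against 93.2 and 104.7, again with the bitransgenic arrays in between, but with the wild type arrays in the opposite order. The differences were 0.16 ± 0.34 for B and -0.025 ± 0.55 for A (adjusted p = 0.911 and 0.993).

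Tek, the endothelial receptor of the angiopoietins, had signals of 659.2 and 502.9 in wild type against 252.8 and 353.8 in bitransgenic skin. Both bitransgenic arrays lay below both wild type arrays. The mean signal was 581.0 ± 111 (SD, n = 2) against 303.3 ± 71.4, a difference of -0.91 ± 0.34 (1.88-fold lower, 95% interval -1.73 to -0.083 on the log2 scale). The unadjusted p was 0.0356 and the adjusted p 0.357 in limma's fit, so Tek did not pass. It was the 1 member probe set with both bitransgenic arrays below the wild type arrays, and in each of 14 alternative fits its difference stayed negative, between -1.14 and -0.68, with an adjusted p between 0.182 and 0.973.

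Angpt1, the ligand that activates Tek, gave signals of 271.9 and 155.4 in wild type against 175.6 and 155.6 in bitransgenic skin with probe set B. The groups overlapped, and the difference was -0.29 ± 0.41 (adjusted p = 0.850). Angpt2, its counterpart, gave 406.3 and 251.3 in wild type against 437.6 and 255.6 in bitransgenic skin with probe set A. Replicate 1 was higher than replicate 2 in both groups, and the genotypes nearly coincided within each replicate number (0.10 and 0.023), with a difference of 0.063 ± 0.42 (95% interval 0.519-fold to 2.10-fold, adjusted p = 0.977). The remaining probe set of each gene was under the filter, with signals of 10.4, 51.2, 6 and 26.3 for Angpt1 A and of 7.8, 13, 27.2 and 6 for Angpt2 B, in the order wild type 1 and 2, bitransgenic 1 and 2. The symbol Ang2 on this array belongs to an angiogenin ribonuclease and is not Angpt2.

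Pecam1, an adhesion molecule of endothelial junctions that leukocytes and platelets also carry, had signals of 584.3 and 567 in wild type against 664.7 and 1040.3 in bitransgenic skin. The wild type arrays lay close together and both bitransgenic arrays lay above them, replicate 2 well above replicate 1. The difference was 0.52 ± 0.32, or 1.43-fold (95% interval 0.834 to 2.46, adjusted p = 0.612). Esam, a junction molecule of endothelium and platelets, gave 933 and 542.9 against 840.8 and 1086.3, so the groups overlapped. Its difference was 0.42 ± 0.35 (adjusted p = 0.730).

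Markers of cells that share Pecam1 and Esam were read beside them. All 6 leukocyte and macrophage markers, none of them at 0 on any array, had higher mean values in bitransgenic skin, with a median difference of 0.82. Their summed signal was 8386 and 4445 in wild type against 8418 and 10416 in bitransgenic skin. It was lowest in wild type replicate 2 and highest in bitransgenic replicate 2, the same arrays that were lowest and highest for Esam and for Pecam1. That order was not particular to them: Vegfa A had it, as did the Rgs5 and Acta2 signals given below. None of the 6 passed the threshold (0 called, 2 at an unadjusted p under 0.05, against 6.32% higher over all genes). The 2 were Cd68 and Itgam. Itgam passed the filter only through its bitransgenic arrays, its wild type mean of 52.25 being under the filter. The p of Itgam is thus no support for a difference. Platelet markers, of which 2 of 4 passed the filter, had a median difference of 0.31. The part of these cells in the values of Pecam1 and Esam was not tested.

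**Figure D2:**
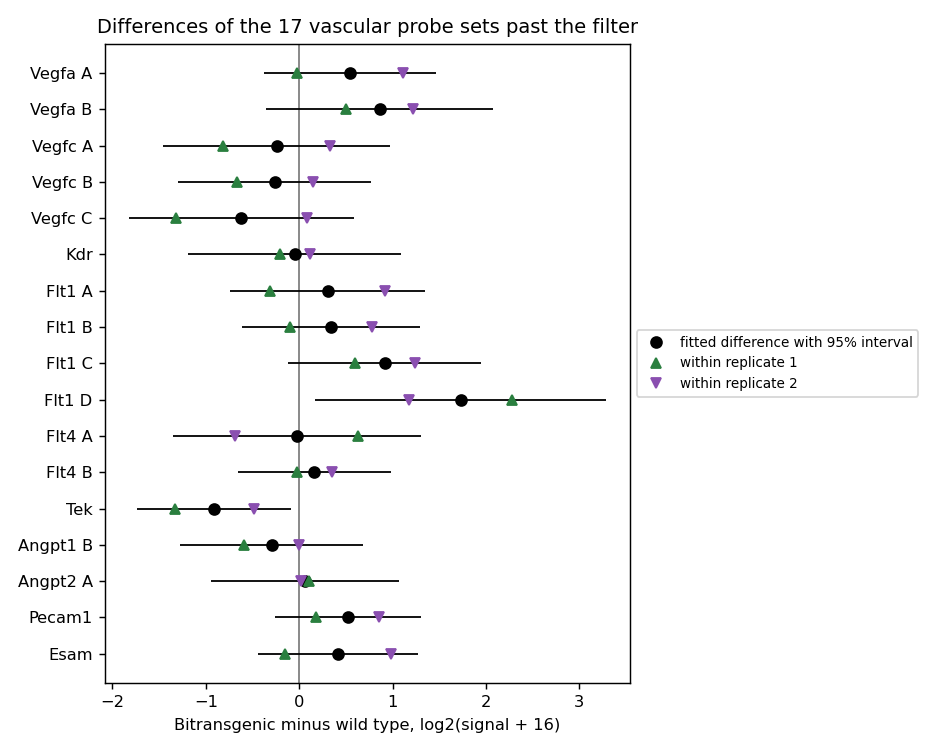
Bitransgenic minus wild type difference on the log2(signal + 16) scale for the 17 probe sets past the filter (rows). Black points with bars are limma's differences with 95% intervals, and triangles are the differences between the arrays that share replicate number 1 (up, green) or 2 (down, purple). All intervals but those of Flt1 D and Tek cross 0.

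The gap between the wild type arrays was larger than the genotype difference in 13 of the 17 probe sets. A gap between single arrays varies more than a difference of group means, so this count alone does not set the members apart. Wild type replicate 1 was above replicate 2 in 14 of the 17 probe sets, and in all 10 genes when each gene was read from its brightest probe set on average. Over all 13070 genes this held for 51.0%. The median of replicate 2 minus replicate 1 was -0.75 over the 17 wild type values and 0.14 over the bitransgenic ones, against -0.021 and 0.041 over all probe sets. In absolute size, the median difference between the wild type arrays was 0.885 for the members and 0.439 over all probe sets. Between the bitransgenic arrays it was 0.3 and 0.327, and the median size of the genotype difference was 0.339 and 0.333. Within replicate number 1 the median genotype difference of the members was -0.098 and within number 2 it was 0.35, and 11 of the 17 probe sets had opposite signs in these comparisons. Vegfa A (-0.024 and 1.11), Esam (-0.15 and 0.98) and Flt1 A (-0.31 and 0.92) were among those that differed in sign. Vegfa B, Flt1 C and D, Angpt2 A and Pecam1 were positive in both, and Tek was negative in both. For all of these but Angpt2 A the groups did not overlap, which by itself fixes the same sign in both comparisons. The replicate numbers are not said to pair animals.

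**Figure D3:**
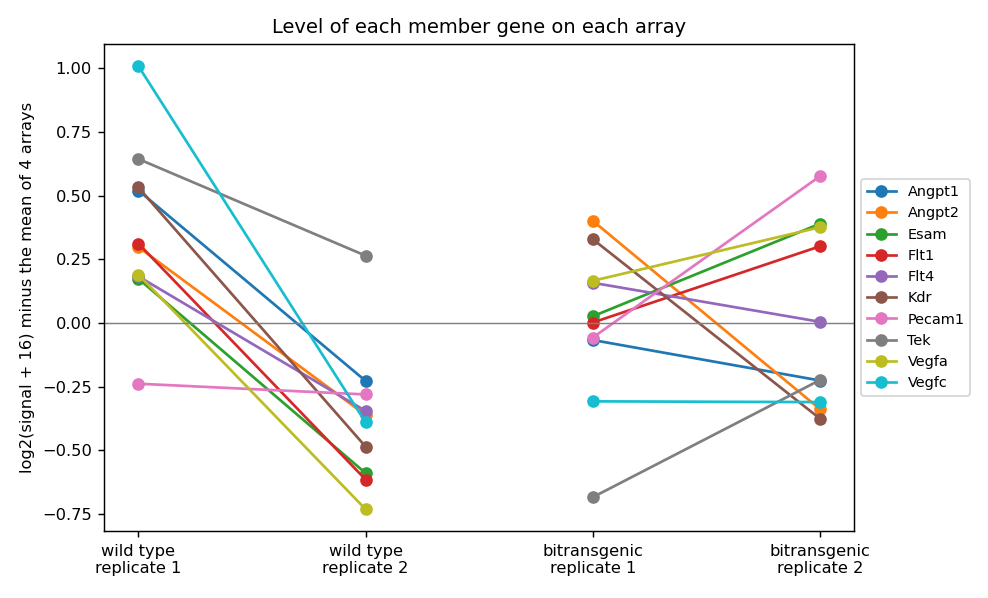
Level of each of the 10 genes on each array, as log2(signal + 16) minus the gene's mean over the 4 arrays, for the probe set with the highest mean; lines join the arrays of a group and imply no order. All 10 genes are higher in wild type replicate 1 than in replicate 2, while 5 are higher in bitransgenic replicate 2 than in replicate 1.

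The same split of the wild type arrays was seen in genes outside the 10 members. Of 36 other endothelial genes tested, 33 were higher in wild type replicate 1 than in replicate 2, with a median of -0.40 for replicate 2 minus 1. Skeletal muscle markers summed to 144124 and 58278 in wild type, against 11934 and 16143 in bitransgenic skin. The fat cell markers summed to 22287 and 11485 in wild type, against 5055 and 6603 in bitransgenic skin. Muscle and fat are well supplied with vessels, and none of these 10 markers tested was at 0 on any array. All 6 muscle and all 4 fat markers had lower values in both bitransgenic arrays, with medians of -3.38 and -1.49 (0 of either called, 6 and 3 at an unadjusted p under 0.05). Over all genes, 24.9% were lower without overlap and 8.99% were lower at an unadjusted p under 0.05. The part of muscle and fat in the vascular values was not tested.

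The remaining genes of the VEGF and angiopoietin system were taken from a list of 10, of which 8 were tested. None passed (0 higher, 0 lower; 0 and 2 at an unadjusted p under 0.05). Of all genes 0.321% were called higher and 0.865% lower, and 6.32% and 8.99% had an unadjusted p under 0.05. The median was -0.45, against 0.0053 over all 13070 genes, and 7 of the 8 values were negative. Leaving out wild type replicate 1 gave -0.25, and leaving out replicate 2 of that group gave -0.83. In 5 of the 8 both bitransgenic arrays lay below both wild type arrays, and in 0 both lay above, against 24.9% and 23.9% of all genes.

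Nrp2, a co-receptor for Vegfc and for semaphorins that is also made in the hair follicle, was closest to the threshold. Its signals were 1104.5 and 1693.2 in wild type against 382.4 and 315.8 in bitransgenic skin. The groups stood well apart, with a difference of -1.93 ± 0.33 (3.81-fold lower, adjusted p = 0.0716 by limma). It passed when 1 probe set a gene was tested (adjusted p = 0.0372 by limma). It did not pass with no filter (adjusted p = 0.115 by limma), with the stricter filter, with either other pseudocount or with either other normalization. With 1 wild type array left out, the difference was -2.23 without replicate 1 and -1.62 without replicate 2. The other 3 Nrp2 probe sets had differences of -1.39, -1.46 and -1.19. Hair shaft markers were lower as well: their summed signal was 42307 and 76891 in wild type against 477 and 3105 in bitransgenic skin. Between the wild type arrays both Nrp2 and the hair sum were higher in replicate 2. Between the bitransgenic arrays the order differed, with Nrp2 lower and the hair sum higher in replicate 2. All 5 hair shaft markers tested were lower on both bitransgenic arrays. Of these, 2 passed the threshold, Krt31 and Krt81 (adjusted p = 0.0446 and 0.0196 by limma). The part of hair shaft cells in the Nrp2 value was not tested.

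Pgf, the placental growth factor, which binds Flt1, read 161.8 and 120.3 in wild type against 38.3 and 55.2 in bitransgenic skin. Both bitransgenic signals were under the filter's 57.0, and the difference was -1.32 ± 0.40 (adjusted p = 0.247 by limma). Pgf thus passed the filter only through its wild type arrays, and its p is no support for a difference. It is among the 2 genes with an unadjusted p under 0.05 and the 5 without overlap counted above. Vegfd, a further ligand of Flt4, read 421.8 and 359.6 against 195.3 and 285.7, with no overlap and a difference of -0.68 ± 0.35 (adjusted p = 0.526). Tie1, the orphan partner of Tek, had a value of 0.036, and Nrp1, the co-receptor of Kdr, one of -0.37.

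Of 38 other endothelial genes, 36 were tested and none passed (0 higher, 0 lower; 2 and 1 at an unadjusted p under 0.05). Their median was 0.14, close to the 0.11 of the 10 member genes, with 25 positive and 11 negative values. The direction of this median rested on 1 array: it was -0.0082 without wild type replicate 2 and 0.34 with that group's replicate 1 left out instead, while leaving out bitransgenic replicates 1 and 2 in turn gave 0.30 and 0.063. Cldn5, the claudin of endothelial tight junctions, read 732.4 and 484.5 against 619.7 and 670.4 (0.11), and Vwf, which endothelium secretes for clotting, read 732.6 and 386 against 421.4 and 376.8 (-0.40). These overlapped, as did Cdh5 (-0.020).

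The endothelial genes with the smallest p differed in direction. Sox7, a transcription factor of developing endothelium, read 627.6 and 469.8 in wild type against 1171.8 and 2247.5 in bitransgenic skin (1.55 ± 0.38, adjusted p = 0.166). Plvap, the diaphragm protein of fenestrated capillaries, read 574 and 348.4 against 1139.4 and 963.7 (1.20 ± 0.34, adjusted p = 0.217). Cd34, carried by endothelium and also by hair follicle stem cells and dermal cells, read 3990.4 and 3588.8 against 1490.6 and 2165.3 (-1.07 ± 0.28, adjusted p = 0.191). The dermal fibroblast markers given above were lower on the same arrays as Cd34, and their part in its value was not tested. For all 3 genes the groups did not overlap, but they were picked by their p, so this adds no support. Of the 36 genes tested, 6 were higher and 4 lower without overlap, against 23.9% and 24.9% of all genes.

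**Figure D4:**
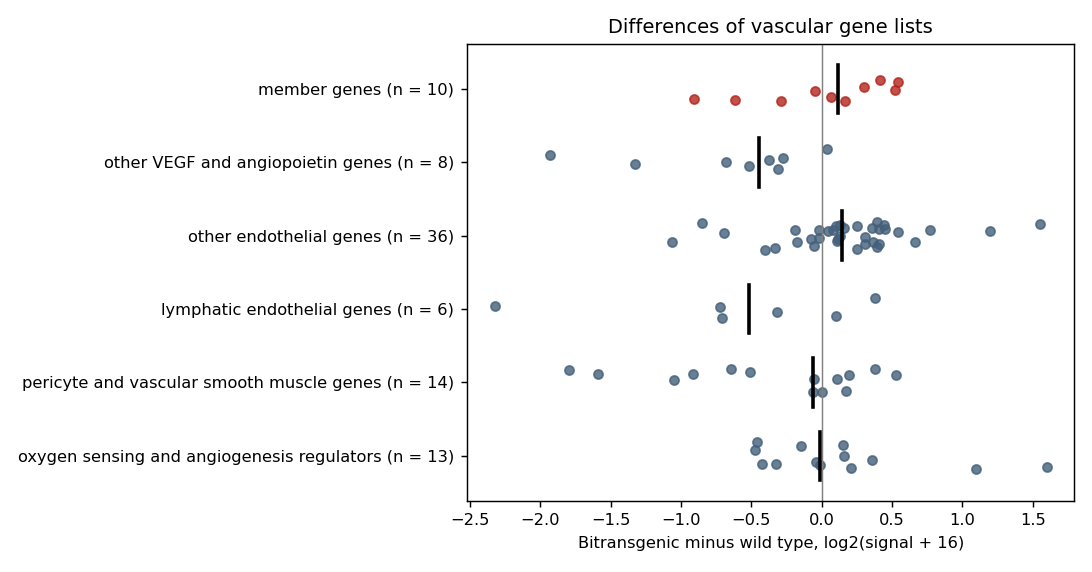
Bitransgenic minus wild type difference on the log2(signal + 16) scale, 1 point for each gene tested, for the 10 members (red) and for 5 further vascular lists (blue-grey); vertical bars are medians and vertical jitter has no meaning. Medians lie between -0.51 for the lymphatic list and 0.14 for the other endothelial genes, and no point is of a called gene.

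Among lymphatic endothelial genes 6 of 8 were tested and 0 passed in either direction (0 higher and 1 lower at an unadjusted p under 0.05), with a median of -0.51. The median became -0.10 with wild type replicate 1 left out and -0.78 with replicate 2 of that group left out. Lyve1, the hyaluronan receptor of lymphatic vessels and some macrophages, read 783.4 and 1162.7 against 1107.3 and 1407.2 (0.38). Foxc2, a factor of lymphatic valves that mesenchymal cells also make, read 1125.6 and 411.8 against 103.7 and 146.4 (-2.33 ± 0.52, adjusted p = 0.137). Without wild type replicate 2, which leaves 1 wild type array, the Foxc2 difference was -3.03. The part of the dermal cells, whose markers were lower on the same arrays, was not tested. Reln and Nr2f2, with smaller differences of -0.72 and -0.71, had adjusted p = 0.552 each. Prox1, the master factor of lymphatic identity, was under the filter on all 4 arrays, with signals of 53.1, 26.8, 38.9 and 18.4 for its brightest probe set.

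All 14 pericyte and vascular smooth muscle genes were tested and 0 passed in either direction (0 higher and 3 lower at an unadjusted p under 0.05), with a median of -0.060, which became 0.0085 and -0.47 when wild type replicates 1 and 2 were left out in turn, and -0.31 when bitransgenic replicate 2 was. Rgs5, the pericyte marker, read 5274.1 and 2857.7 against 5386.2 and 5846.8 (0.53, with 0.093 and 0.77 for its other probe sets tested), and Acta2, the actin of smooth muscle, 7987.8 and 6516.7 against 7497 and 8780.5 (0.17). The smallest p values belonged to genes that other cells share. Anpep, also made by dermal fibroblasts, read 1451.5 and 1477.4 against 344.8 and 650.7 (-1.59 ± 0.36, adjusted p = 0.139). The summed dermal fibroblast signal was likewise lower on both bitransgenic arrays and lowest on replicate 1, and its part in the Anpep value was not tested. Des, the desmin of all muscle, read 2943.3 and 1060.5 against 425.7 and 581.9 (-1.80 ± 0.50, adjusted p = 0.210). Des was highest in wild type replicate 1 and lowest in bitransgenic replicate 1. The summed skeletal muscle, fat cell and dermal fibroblast signals shared these highest and lowest arrays. The part of these cells in the Des value was not tested. Without wild type replicate 2, which leaves 1 wild type array, the difference was -2.53 for Des. For Abcc9 it was then -1.98, against -0.92 with all 4 arrays. Cspg4, a proteoglycan of pericytes, had a value of -1.05 ± 0.39 (adjusted p = 0.349) with its brighter probe set. Its other probe set, with 193.4 and 123.1 against 120.1 and 160.1, overlapped between the groups and gave -0.14.

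Of 14 oxygen sensing and angiogenesis regulators, 13 were tested and 0 passed in either direction (2 higher and 0 lower at an unadjusted p under 0.05). The median was -0.014 and turned positive with quantile normalization (0.063) and with equal array medians (0.064). It was 0.12 and 0.054 without wild type replicates 1 and 2, and -0.15 without bitransgenic replicate 2. Hif1a, the oxygen-regulated subunit of the factor that drives Vegfa transcription in hypoxia, read 3676.2 and 2634.4 in wild type against 7215.9 and 6190.7 in bitransgenic skin (1.10 ± 0.27, adjusted p = 0.168). Egln3, a prolyl hydroxylase that marks that subunit for destruction and is itself a target of the factor, read 1162.7 and 1793.1 against 3884.1 and 5008.7 (1.60 ± 0.31, adjusted p = 0.0973). Neither pair of groups overlapped, but both genes were picked by their p, so this adds no support. Of the 13 genes tested, 2 were higher and 1 lower without overlap, against 23.9% and 24.9% of all genes. Further probe sets gave 0.48 and 1.19 for Hif1a, the second with overlapping groups, and 0.96 for Egln3. Without wild type replicate 2, which leaves 1 wild type array, the Egln3 difference was 1.91. Epas1, the related subunit abundant in endothelium, had a value of 0.35 ± 0.29 with overlapping groups. Its dimmer probe set read 77.6 and 39.2 against 197.8 and 112.8, without overlap, and gave 1.21 ± 0.47 (unadjusted p = 0.0410, adjusted p = 0.378). On the log scale of the filter, the wild type mean of this probe set was just under the filter. The probe set thus passed only through its bitransgenic arrays, and its p and lack of overlap are no support for a difference.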

How the data were processed

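The deposited values are probe set signals, an array intensity on a linear scale. Per the submitters' processing notes MAS5 and the affy package were used; the sources used here give no version or role for them. The authors had scaled each array to a trimmed mean of 500.0 (2% cut at each end), which hides any shift in RNA content per cell. No detection calls were used, and precision is limited by the number of arrays. Of 45037 probe sets that were not controls, 34945 had 1 gene symbol in the platform annotation, 932 several (named for no gene) and 9160 none.

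Signals were taken as log2(signal + 16) and kept where the mean over 4 arrays reached the 40th percentile (a signal of 57.0). Low genes have their folds understated by the pseudocount. All 27022 probe sets kept were fitted with limma 3.58.1 in R 4.3.3 (lmFit, eBayes with trend; 2 residual and 4.4 prior degrees of freedom), with Benjamini-Hochberg adjustment over all of them and a threshold of 0.05. List genes were read from the same fit through the probe set with the highest mean. The code was tested on simulated data. Alternatives were pseudocounts of 1 and 64, no filter or one at the 60th percentile, 1 probe set a gene, quantile normalization, equal array medians, leaving out probe sets of suffix _x_at or _s_at, no trend, replicate number as a block, and leaving out each array. The members and lists were chosen with earlier results of these data known. Named genes are all members, called list genes and the 3 smallest p values of each vascular list. Cdh5, Cldn5, Vwf, Tie1, Nrp1, Lyve1, Prox1, Rgs5, Acta2, Abcc9, Krt1, Ivl and Lor were named after their values were seen. Replicate numbers are not said to pair animals.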

Additional observations from a re-analysis of the deposited data

How the results depend on the processing

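No member probe set was called with either pseudocount, filter, normalization, trend setting or the replicate block, and 1, Flt1 D, was called without wild type replicate 2. Over all probe sets the 56 higher and 150 lower calls became 20 and 58 with no filter, 21 and 66 without the trend, and 275 and 588 with replicate number as a block; with 1 probe set a gene the higher calls were 98. Leaving out 1 array gave 40 to 370 higher and 144 to 735 lower calls. The cause of these changes was not tested. Called lower in the VEGF and angiopoietin list was 1 gene, Nrp2, with 1 probe set a gene and with the block, and 0 to 1 without 1 array. The block also called 1 lower pericyte and smooth muscle gene, Anpep (adjusted p = 0.0495 by limma), and 2 higher oxygen sensing genes, Hif1a (0.0423) and Egln3 (0.0187); for Nrp2 it gave 0.0311 and for Tek 0.213. Without 1 array the calls were 0 to 1 higher for the members, 0 to 1 lower for lymphatic, 0 to 2 lower for pericyte and smooth muscle and 0 to 1 higher for oxygen sensing genes. The pericyte and smooth muscle median was -0.67 within replicate 1. Same-numbered arrays deviated together from their group means (r = 0.336 over probe sets of 2 pairs), which does not show a pairing.

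The sign of values near 0 changed. Flt4 A was 0.0037 with a pseudocount of 1, 0.047 with quantile normalization and 0.053 with equal array medians, and Kdr was 0.048 and 0.032 with the last 2 settings. Without 1 array, values ran from -0.89 to 0.40 for Vegfc A, -0.71 to 0.18 for Vegfc B, -1.32 to 0.081 for Vegfc C, -0.56 to 0.46 for Kdr, -0.67 to 0.081 for Angpt1 B, -0.16 to 0.77 for Flt1 A, -0.76 to 0.71 for Flt4 A, -0.10 to 0.43 for Flt4 B and -0.31 to 0.43 for Angpt2 A. Vegfa, Flt1 B, C and D, Tek, Pecam1 and Esam kept their sign in every alternative fit that tested them, but not their size. Without 1 array they ran from 0.081 to 1.0 for Vegfa A, 0.27 to 1.45 for Vegfa B, 0.11 to 0.57 for Flt1 B, 0.47 to 1.37 for Flt1 C, 0.85 to 2.61 for Flt1 D, 0.20 to 0.84 for Pecam1, 0.034 to 0.80 for Esam and -1.14 to -0.68 for Tek. The median of the members was 0.46 without wild type replicate 1 and -0.10 with that group's replicate 2 left out, and the arrays' number limits all of these values.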
